A study of Mus musculus with 6 samples.

Results

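The proteasome genes of the retina were taken as the genes whose symbol in the deposited count table is Psma, Psmb, Psmc, Psmd, Psme, Psmf or Psmg followed by a number. This rule gave 48 of the 31169 genes in the table, of which 46 passed a filter on low counts and were tested with the 17707 genes tested in all. The measurement was poly(A) RNA of whole retina in male C57BL/6 mice, 2 months old at harvest, after an injection into the anterior chamber at 1 month of age. The 3 saline-injected retinas received 1 µl of saline and the 3 microbead-injected retinas 1 µl of a suspension of 15 µm beads, as the sample records give it, and the retinas were collected 4 weeks later. The beads obstruct the outflow of aqueous humor and raise intraocular pressure (IOP), the pressure that stresses retinal ganglion cells (RGCs) in glaucoma, and the saline-injected eyes had the same injection without beads. By the study's methods both eyes of a mouse were injected, and the records do not say whether each library came from a separate mouse, so that the p-values measure the spread between these libraries. Each library mixes all cell types of the retina, and fewer cells of a type cannot be told apart from less RNA per cell.

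The proteasome is the protease that degrades ubiquitin-tagged proteins in every cell. Its 20S core is a barrel of stacked alpha and beta rings, with the proteolytic sites inside the beta rings, and its 19S regulatory particle binds the tagged protein, unfolds it with a ring of ATPases and feeds it into the core. In inflamed tissue or immune cells the catalytic beta subunits are exchanged for immunoproteasome subunits, whose peptides are loaded on MHC class I molecules. In neurons, which do not dilute damaged proteins by division, the proteasome is a main route of protein turnover.

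The saline libraries held 36085737 to 46481382 counts and the microbead libraries 13574949 to 19834366 counts, a ratio of 2.40 between the median depths. In the descriptions of the sample records the names of the saline libraries form one series and those of the microbead libraries a second, while the titles run on in 1 series. What the names stand for is not given, and a difference between these series cannot be told apart from the injection. Mitochondrial genes took 3.19% to 3.57% of the counts in saline libraries and 8.90% to 10.6% in microbead libraries, and their part in the results below was not tested. The summed level of 8 rod markers was 54024 to 80898 counts per 1000000 (CPM, on library sizes scaled by the TMM method of edgeR) in the 6 libraries, as the label retina implies, and no marker of any retinal cell type was at 0. Saline replicate 1 stood apart from the other libraries. Its 8 RGC markers summed to 327 CPM, against 823 to 1236 CPM in the other 5 libraries, and its 12 microglia and leukocyte markers summed to 272 CPM, against 67.6 to 147 CPM. The sums of the 7 endothelial markers did not overlap, at 454 to 655 CPM in saline and 280 to 429 CPM in microbead libraries, and 3 of these genes were past the threshold and lower, as were 2 of 7 markers of Mueller glia, 1 of 8 of rods and 1 of 12 of microglia and leukocytes, while 1 of 4 cone markers was higher. The part of these cell types in the proteasome results was not tested.

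Microbead injection was followed by falls of Psmb5 and Psmb4, both of the 20S beta ring, and of Psmd2, a scaffold of the 19S particle, and by rises of Psme3, a nuclear activator of the core, and Psmg1, an assembly chaperone. Thus 5 of the 46 genes tested (10.9%) had an adjusted p-value under 0.05 in edgeR's quasi-likelihood test, 2 of them higher (4.35%) and 3 lower (6.52%). Among all genes tested, 12.8% passed, with 6.46% higher and 6.31% lower, so the share of proteasome genes was near that of the retina as a whole. With DESeq2, 3 were higher (beside 8.98% of all genes it tested) and 4 lower (beside 8.88%). In edgeR's test the other 41 did not pass, and 12 of the 46 (26.1%) had an unadjusted p-value under 0.05, beside 31.4% of all genes tested. The median log2 fold change of the 46 genes was -0.15, beside -0.03 over all genes tested, with 17 genes above 0 and 29 below. The values of the groups did not overlap for 13 of the 46 genes (28.3%, beside 37.8% of all genes tested), 6 of them higher and 7 lower in the microbead group. The 5 genes past the threshold were among these 13.

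**Figure D1:**
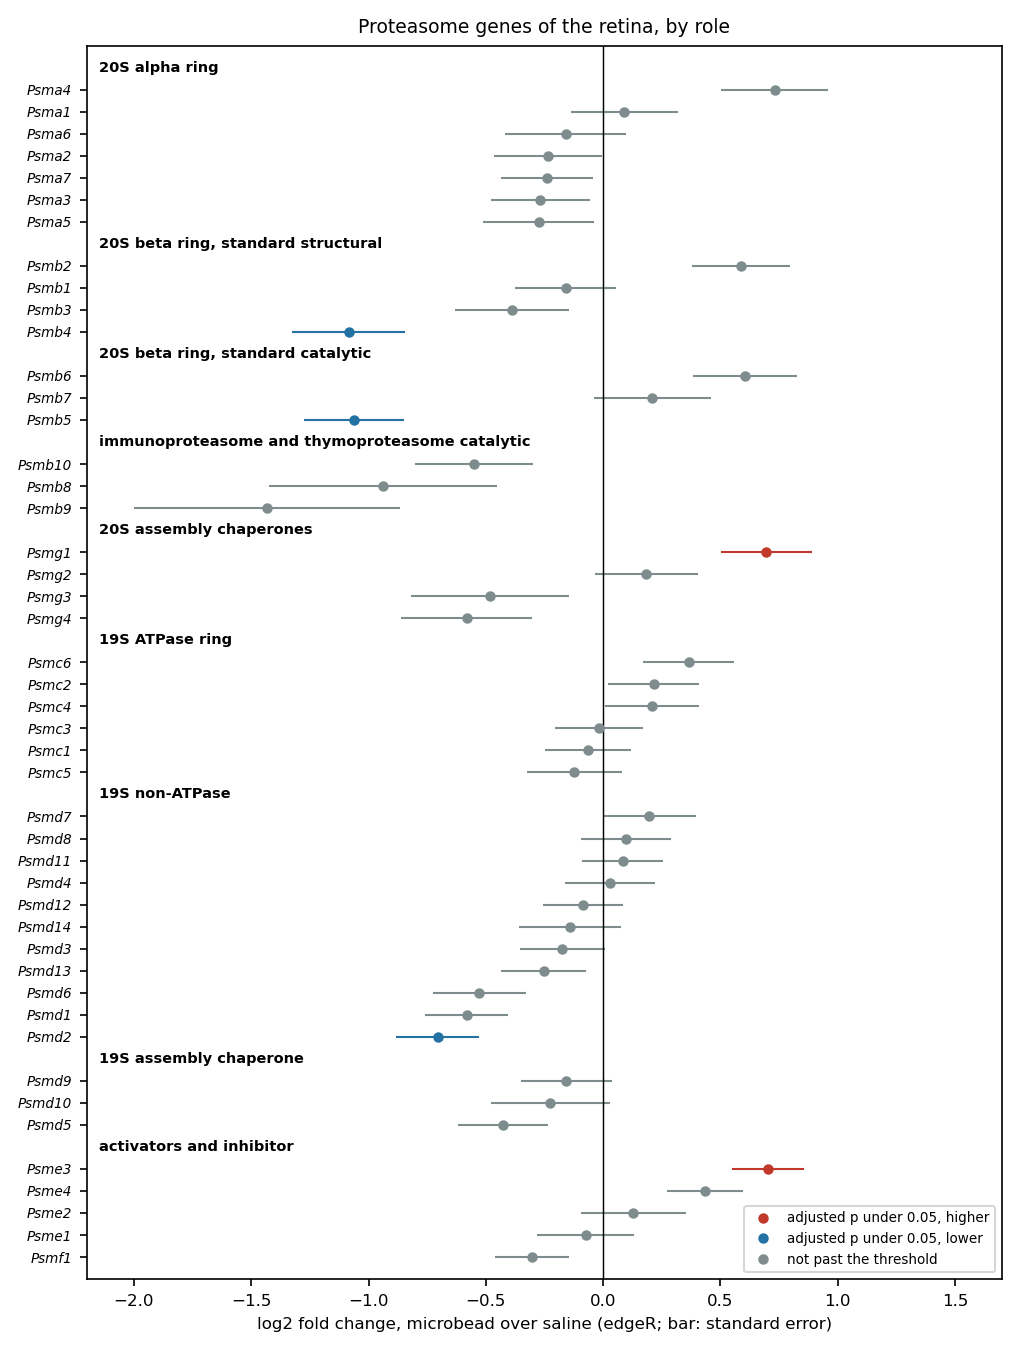
Log2 fold change of each tested proteasome gene, microbead over saline, from edgeR (horizontal axis), with genes ordered by role (vertical axis); points are estimates over 3 libraries per group and bars their standard errors. Psmb4, Psmb5 and Psmd2 lie to the left of 0 past the threshold, Psme3 and Psmg1 to the right, and the 6 genes of the 19S ATPase ring lie between -0.12 and 0.37.

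Psmb5 carries the chymotrypsin-like site of the standard core, the site that proteasome inhibitors chiefly block. It was measured at 59.8, 59.1 and 81.3 CPM after saline and at 37.4, 25.1 and 33.2 CPM after microbeads. Every microbead library was below every saline library, the saline group averaging 66.7 ± 12.6 CPM (SD, n = 3) and the microbead group 31.9 ± 6.24 CPM (SD, n = 3). Psmb5 had a log2 fold change of -1.06 with a standard error of 0.21 (adjusted p = 0.0184, edgeR), and thus fell by 52.1%. With 1 library left out the log2 fold change lay between -1.20 and -0.90, and the adjusted p from edgeR was over 0.05 without saline replicate 2 (0.0538), microbead replicate 2 (0.0608) or microbead replicate 3 (0.0867). The gene lies on chromosome 14 from 54614119 to 54618022 of GRCm38, and 12.1% of its exonic bases are also those of Mir686 on the same strand.

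Psmb4, a structural subunit of the beta ring that has no proteolytic site, fell by a like amount. It was measured at 138, 129 and 162 CPM after saline and at 94.0, 51.2 and 57.6 CPM after microbeads. The groups did not overlap, and microbead replicate 1 stood well above the other two microbead libraries. The mean was 143 ± 17.1 CPM after saline and 67.6 ± 23.1 CPM after microbeads (SD, n = 3 each), with a log2 fold change of -1.08 and a standard error of 0.24 (adjusted p = 0.0246, edgeR). With 1 library left out the log2 fold change lay between -1.40 and -0.90, and the adjusted p from edgeR was over 0.05 without saline replicate 2 (0.0637), microbead replicate 2 (0.0787) or microbead replicate 3 (0.114). Psmb4 and Psmb5 were the only proteasome genes past the threshold with a change over 2-fold.

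Psmd2 is the 19S scaffold on which shuttle receptors and the deubiquitinase Usp14 dock. Its values were 209, 217 and 260 CPM after saline and 158, 126 and 136 CPM after microbeads, again with no overlap. The log2 fold change was -0.71 with a standard error of 0.18 (adjusted p = 0.0329, edgeR). This call was kept in only 1 of the 6 fits that leave out a library, without saline replicate 1 (adjusted p = 0.0340, edgeR), and the adjusted p in the others ran from 0.0508 to 0.122. Psmd1, the other large scaffold of the particle and a structural relative of Psmd2, was at 124, 137 and 170 CPM after saline and at 103, 91.1 and 93.8 CPM after microbeads. The groups did not overlap, but with a log2 fold change of -0.58 and a standard error of 0.18 it missed the threshold (adjusted p = 0.0591, edgeR). It passed without saline replicate 1 (adjusted p = 0.0463, edgeR), with no filter on low counts (0.0342) and with DESeq2 (0.0347).

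Psme3 encodes the nuclear PA28 gamma activator, which opens the core to substrates that carry no ubiquitin. It was measured at 102, 99.0 and 112 CPM after saline and at 170, 164 and 176 CPM after microbeads. The groups lay well apart beside the spread within each. The log2 fold change was 0.70 with a standard error of 0.15, the smallest among the 5 genes past the threshold (adjusted p = 0.0237, edgeR), and between 0.66 and 0.76 with 1 library left out. The adjusted p from edgeR stayed under 0.05 without saline replicate 1 or saline replicate 3 and lay between 0.0508 and 0.121 without saline replicate 2 or any one microbead library.

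Psmg1 pairs with Psmg2 in the chaperone that starts assembly of the alpha ring. Its values were 13.1, 13.54 and 14.6 CPM after saline and 25.1, 18.8 and 22.9 CPM after microbeads, with no overlap. The log2 fold change was 0.70 with a standard error of 0.19 (adjusted p = 0.0456, edgeR), the weakest of the 5 calls. The call was not kept when any one library was left out (adjusted p 0.0582 to 0.163, edgeR), although its log2 fold change stayed between 0.60 and 0.82. Its partner Psmg2 had a log2 fold change of 0.18 (adjusted p = 0.604, edgeR), with overlapping groups.

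**Figure D2:**
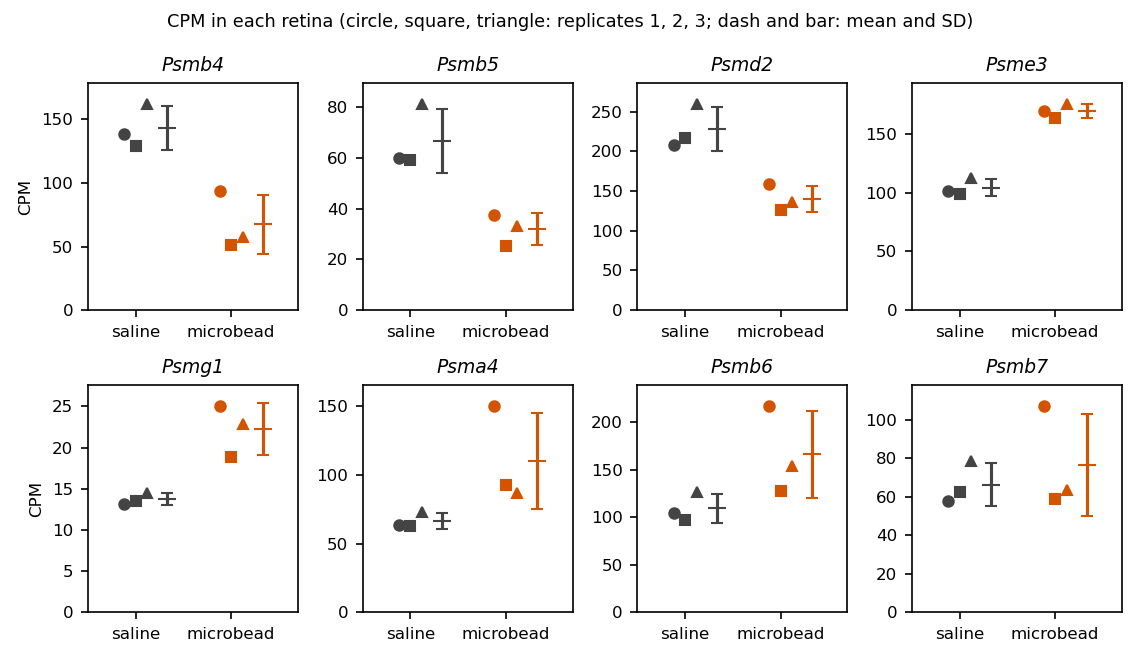
CPM (vertical axes, from 0) of 8 proteasome genes in each saline-injected and microbead-injected retina (horizontal axes); circles, squares and triangles are replicates 1, 2 and 3, and the dash and bar are the mean and SD of 3 libraries. Psmb4, Psmb5 and Psmd2 are lower and Psme3 and Psmg1 higher in all 3 microbead libraries, Psma4 and Psmb6 are also higher in all 3 but did not pass the threshold, and Psmb7 overlaps between the groups.

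The stretch of 250 bases before the RefSeq transcription start was examined for the 40 of 48 genes that the RefSeq table of GRCm38.p6 held. The stretches of the 5 genes past the threshold are shown, as only these proteasome genes were called. They lie at chr3:94886959-94887208 (Psmb4, minus strand), chr14:54617996-54618245 (Psmb5, minus strand), chr16:20651402-20651651 (Psmd2, plus strand), chr11:101315963-101316212 (Psme3, plus strand) and chr16:95990961-95991210 (Psmg1, minus strand), and are written 5′ to 3′ on the strand of the gene. Capitals mark a match to the antioxidant response element TGACNNNGC, the kind of element bound by the factors Nfe2l1 and Nfe2l2 that induce proteasome genes, or to the box CCAAT, on either strand.
Psmb5: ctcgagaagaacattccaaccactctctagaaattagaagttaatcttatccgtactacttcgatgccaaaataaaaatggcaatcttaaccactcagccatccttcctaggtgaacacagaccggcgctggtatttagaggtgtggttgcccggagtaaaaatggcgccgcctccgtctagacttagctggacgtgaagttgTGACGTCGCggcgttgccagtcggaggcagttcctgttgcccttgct
Psmb4: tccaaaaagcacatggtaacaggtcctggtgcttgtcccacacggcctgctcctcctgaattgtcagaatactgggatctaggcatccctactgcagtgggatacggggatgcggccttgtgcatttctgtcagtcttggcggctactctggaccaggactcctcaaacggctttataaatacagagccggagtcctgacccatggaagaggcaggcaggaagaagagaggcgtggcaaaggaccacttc
Psmd2: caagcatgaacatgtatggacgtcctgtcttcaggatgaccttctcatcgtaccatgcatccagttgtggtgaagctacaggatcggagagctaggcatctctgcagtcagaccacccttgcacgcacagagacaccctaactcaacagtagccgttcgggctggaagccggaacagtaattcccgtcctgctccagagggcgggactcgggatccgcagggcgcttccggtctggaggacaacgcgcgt
Psme3: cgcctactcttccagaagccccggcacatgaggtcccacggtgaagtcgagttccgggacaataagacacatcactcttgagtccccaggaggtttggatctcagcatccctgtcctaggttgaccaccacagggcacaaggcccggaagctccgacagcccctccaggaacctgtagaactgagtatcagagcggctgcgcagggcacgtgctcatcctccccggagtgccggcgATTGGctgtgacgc
Psmg1: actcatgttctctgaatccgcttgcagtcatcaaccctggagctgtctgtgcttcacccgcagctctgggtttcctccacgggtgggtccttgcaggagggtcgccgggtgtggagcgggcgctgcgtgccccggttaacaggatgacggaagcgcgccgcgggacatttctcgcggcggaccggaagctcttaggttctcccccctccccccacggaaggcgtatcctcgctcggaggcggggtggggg

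Of these, Psmb5 held an antioxidant response element 38 bases before its start, and Psme3 a CCAAT box, read as ATTGG on the strand shown, 9 bases before its start. Psmb4, Psmd2 and Psmg1 held neither motif in this window. Each of the 40 proteasome genes had 1 window, at the RefSeq start nearest its annotated start. The 32851 mouse promoters set beside them were not reduced to 1 per gene. Among all 40 proteasome promoters, 5 held TGACNNNGC (12.5%, beside 10.2% of 32851 mouse promoters), those of Psmb5, Psmb6, Psmc6, Psmd12 and Psmd9. The levels of these 5 genes did not move one way, with Psmb5 lower past the threshold and the log2 fold changes of Psmb6 at 0.60, Psmc6 at 0.37, Psmd12 at -0.09 and Psmd9 at -0.16. CCAAT was held by 14 of the 40 (35.0%, beside 33.9%), and the core of the interferon-stimulated response element, GAAA followed after 2 bases by GAAA, by 3 (7.50%, beside 2.98%), namely Psmb3, Psmd4 and Psmd9. The immunoproteasome genes Psmb8, Psmb9 and Psmb10 did not hold this core in the window. The RefSeq starts used lay 474 bases (Psmb8), 434 bases (Psmb9) and 58777 bases (Psmd9) inside the gene from its annotated start. For these genes the window did not cover the bases before the annotated start.

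The catalytic beta subunits did not move as one. Psmb6 carries the caspase-like site and was at 104, 97.0 and 127 CPM after saline and at 217, 128 and 154 CPM after microbeads. The lowest microbead value was just above the highest saline value, and microbead replicate 1 lay far above the rest. The log2 fold change of 0.60 with a standard error of 0.22 did not pass (adjusted p = 0.0981, edgeR), and was 0.36 without microbead replicate 1. Psmb7, which carries the trypsin-like site, was at 57.7, 62.5 and 78.9 CPM after saline and at 107, 58.9 and 63.6 CPM after microbeads, with overlapping groups. Its log2 fold change was 0.21 (adjusted p = 0.606, edgeR), and -0.12 without microbead replicate 1. Psmb7 shares 11.8% of its exonic bases with Nek6 on the opposite strand.

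A ratio of Psmb5 to Psmb6 within a library does not depend on how the libraries were scaled. This ratio was chosen after the values of both genes were seen. On CPM per kilobase of exon, Psmb5 was at 119%, 127% and 134% of Psmb6 in saline-injected retinas and at 35.9%, 40.9% and 45.0% in microbead-injected retinas. The groups were far apart beside their spread, with means of 127 ± 7.26% and 40.6 ± 4.56% (SD, n = 3 each). Relative to Psmb7, Psmb5 stood at 395%, 360% and 392.2% in saline-injected retinas and at 133%, 162% and 199% in microbead-injected retinas, also with no overlap. That Psmb5 stood above Psmb6 in the saline libraries holds only per kilobase, since its CPM were below those of Psmb6 in all 6 libraries. The fall of the ratio does not depend on the lengths.

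On the same scale, the order of the 14 standard core genes differed between the groups. Within a group this order depends on the annotated length of merged exons, 899 bases for Psmb5 and 4595 for Psmb1. In CPM, the saline mean of Psmb5 (66.7) was below those of Psmb4 (143), Psmb6 (109) and Psmb1 (87.2). The same limit holds for the 19S genes, with 1394 bases for Psmc5 and 6383 for Psmd11. In saline-injected retinas Psmb5 was the most abundant per kilobase (74.2 ± 14.0 CPM per kb, SD, n = 3), next to Psmb4 (73.5 ± 8.75), and these neighbours did not differ beyond their spread. In microbead-injected retinas Psmb6 was the most abundant (88.7 ± 24.5 CPM per kb) and Psmb5 (35.5 ± 6.94) and Psmb4 (34.6 ± 11.8) lay near the middle. Psmb1 was the lowest in both groups, at 18.99 and 17.0 CPM per kb. The highest and lowest of the core genes differed 3.91-fold in saline-injected and 5.22-fold in microbead-injected retinas. Among the 17 genes of the 19S particle within the rule, the ends of the order were the same in both groups. Psmc5, an ATPase, was highest (93.9 and 86.2 CPM per kb) and Psmd11, a scaffold, lowest (10.5 and 11.1 CPM per kb). Shfm1, a 19S subunit outside the rule, was below Psmd11 after saline (9.51 CPM per kb) and above it after microbeads (19.8 CPM per kb).

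**Figure D3:**
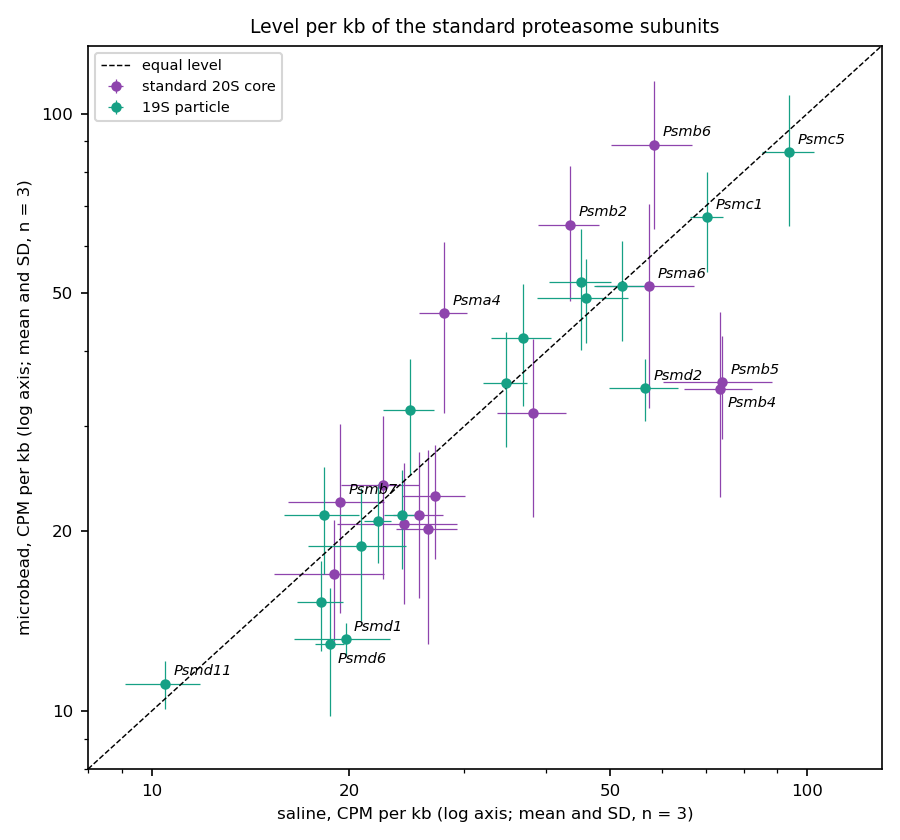
Mean level per kilobase of the standard 20S core and 19S genes in saline-injected (horizontal) and microbead-injected retinas (vertical), in CPM per kb on log axes; bars are the SD of 3 libraries, and the dashed line marks equal levels. Psmb4, Psmb5 and Psmd2 lie below the line, and Psma4, Psmb2 and Psmb6 above it.

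None of the 7 tested genes of the alpha ring passed the threshold, and their median log2 fold change was -0.24. Psma4 stood apart from the rest, at 63.3, 62.7 and 72.7 CPM after saline and at 150, 92.6 and 86.9 CPM after microbeads. Its groups did not overlap, with a log2 fold change of 0.73 and a standard error of 0.23, but the adjusted p from edgeR was 0.0628. It passed with no filter (adjusted p = 0.0258), with DESeq2 (0.0253) and with a minimum of 10 counts per library (0.04999), and its log2 fold change fell to 0.43 without microbead replicate 1. Psma5 was at 47.7, 46.2 and 57.5 CPM after saline and at 57.4, 35.4 and 32.2 CPM after microbeads, where microbead replicate 1 lay among the saline values (log2 fold change -0.27, adjusted p = 0.461, edgeR). The other 5, Psma1, Psma2, Psma3, Psma6 and Psma7, overlapped between the groups, with log2 fold changes of -0.27 to 0.09.

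Of the other structural beta genes, Psmb2 was at 49.5, 48.7 and 58.7 CPM after saline and at 101, 62.8 and 71.5 CPM after microbeads. Every microbead library was above the saline libraries, yet the log2 fold change of 0.59 with a standard error of 0.21 did not pass (adjusted p = 0.0893, edgeR) and was 0.36 without microbead replicate 1. Psmb1 and Psmb3 overlapped between the groups, at log2 fold changes of -0.16 and -0.39. Summed over its 14 standard genes, the 20S core took 1050, 1007 and 1280 CPM after saline and 1407, 866 and 905 CPM after microbeads. The log2 ratio of the means was -0.07, and it was 0.07 without microbead replicate 2 and -0.33 without microbead replicate 1, so these sums gave no direction.

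In the 19S particle, the ring of ATPases showed no change past the threshold in any of its 6 genes. Their median log2 fold change was 0.09. Psmc6 was at 84.4, 80.1 and 95.2 CPM after saline and at 139, 103 and 92.4 CPM after microbeads (log2 fold change 0.37, adjusted p = 0.230, edgeR). Psmc2 was at 83.1, 87.8 and 106 CPM and at 132, 90.7 and 98.6 CPM in the respective groups (log2 fold change 0.21, adjusted p = 0.486, edgeR). In both genes the groups overlapped and the highest value was that of microbead replicate 1. The other 4, Psmc1, Psmc3, Psmc4 and Psmc5, had log2 fold changes of -0.12 to 0.21.

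Of the 11 other subunits of the particle within the rule, Psmd2 was the 1 that fell past the threshold. Psmd6 did not overlap between the groups either, at 49.3 to 54.4 CPM in saline-injected and 29.4 to 46.2 CPM after microbeads (log2 fold change -0.53, adjusted p = 0.106, edgeR). The ubiquitin receptor Psmd4 (log2 fold change 0.03) and the deubiquitinase Psmd14 (-0.14) overlapped between the groups, as did Psmd3, Psmd7, Psmd8, Psmd11, Psmd12 and Psmd13 (-0.25 to 0.20). The 17 genes of the particle within the rule summed to 1689, 1698 and 1985 CPM after saline and to 1981, 1437 and 1591 CPM after microbeads. The log2 ratio of the means was -0.10, and Shfm1 is not part of these sums. The sign of this ratio also turned when microbead replicate 2 was left out (0.01).

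The chaperones of 19S assembly, Psmd5, Psmd9 and Psmd10, did not pass the threshold. Psmd5 was at 52.9, 56.5 and 65.8 CPM after saline and at 53.2, 39.4 and 37.7 CPM after microbeads, with microbead replicate 1 among the saline values (log2 fold change -0.43, adjusted p = 0.162, edgeR). Psmd10, also known as gankyrin, was at 13.6, 15.5 and 16.01 CPM and at 17.2, 11.8 and 9.42 CPM in the respective groups (log2 fold change -0.23, adjusted p = 0.582, edgeR). Psmd9 overlapped between the groups at -0.16. Among the chaperones of the core, Psmg4 was at 7.07, 6.62 and 7.39 CPM after saline and at 5.51, 3.47 and 5.07 CPM after microbeads. Its groups did not overlap, but the log2 fold change of -0.58 had a standard error of 0.28 (adjusted p = 0.188, edgeR). Its partner Psmg3 overlapped, at -0.48.

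Among the activators and the inhibitor, Psme3 was the 1 gene of 5 past the threshold. Psme4 encodes the nuclear activator PA200 and was at 49.1, 53.7 and 50.5 CPM after saline and at 77.9, 65.0 and 64.2 CPM after microbeads. Every microbead library was higher, with a log2 fold change of 0.43 and a standard error of 0.16 that did not pass (adjusted p = 0.102, edgeR). The interferon-inducible activator subunits Psme1 and Psme2 overlapped between the groups, at log2 fold changes of -0.07 and 0.13. The inhibitor Psmf1 was at 50.1 to 56.4 CPM in saline-injected and 40.9 to 45.5 CPM after microbeads, without overlap and without passing (log2 fold change -0.30, adjusted p = 0.224, edgeR).

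The immunoproteasome genes were low in whole retina, and 1 library set much of their difference. Psmb8, the inducible counterpart of Psmb5, was at 13.2, 3.88 and 4.88 CPM after saline and at 4.99, 3.90 and 2.53 CPM after microbeads. Psmb9, the counterpart of Psmb6, was at 8.87, 2.26 and 3.22 CPM and at 2.73, 1.30 and 1.23 CPM in the respective groups. Psmb10, the counterpart of Psmb7, was at 18.5, 12.1 and 14.5 CPM and at 12.4, 8.09 and 10.3 CPM. In all 3 genes saline replicate 1 was the highest of the 6 libraries and the groups overlapped. The log2 fold changes were -0.94 for Psmb8 (adjusted p = 0.220), -1.43 for Psmb9 (adjusted p = 0.1199) and -0.55 for Psmb10 (adjusted p = 0.169, all edgeR). Without saline replicate 1 they were -0.20, -0.63 and -0.37. Psmb9 passed with no filter on low counts (adjusted p = 0.0209, edgeR).

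As a share of the level of all 6 catalytic beta genes per kilobase, the 3 immunoproteasome genes took 10.99%, 6.12% and 5.63% in saline-injected retinas and 4.77%, 5.22% and 4.91% in microbead-injected retinas. Every microbead value was below the saline values, and the difference of the means was -2.61 percentage points, or -0.907 points without saline replicate 1. This did not hold for each gene beside its standard counterpart. Psmb9 relative to Psmb6 and Psmb10 relative to Psmb7 were lower after microbeads without overlap. Psmb8 was at 5.88%, 1.74% and 1.60% of Psmb5 after saline and at 3.55%, 4.13% and 2.03% after microbeads, with overlapping groups. Saline replicate 1 was also the library with the highest summed level of microglia and leukocyte markers and the lowest of RGC markers, given above. It had the highest values of Tap1, which carries peptides to MHC class I molecules (23.0 CPM, against 4.22 to 7.22 CPM in the other 5 libraries). The same held for H2-K1, a class I heavy chain (242 CPM, against 49.5 to 76.3 CPM). H2-K1 shares 22.8% of its 31-base stretches with other loci, and its largest share with a single gene is that with H2-D1 (11.1%). The part of these cells in the immunoproteasome values was not tested. Psmb9 and Tap1 share 212 exonic bases on opposite strands, and Psmb8 shares 14.7% of its exonic bases with Gm20496.

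**Figure D4:**
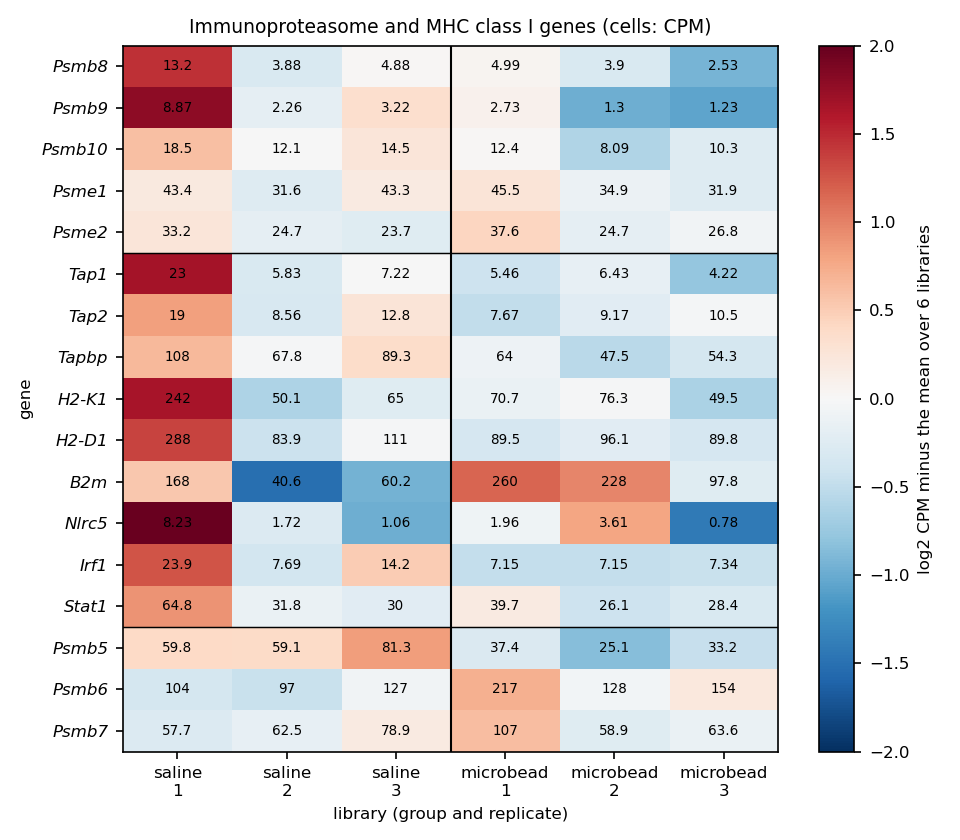
CPM of immunoproteasome, activator, MHC class I and standard catalytic genes (rows) in the 6 libraries (columns); the printed values are CPM and the colours are log2 CPM less the mean of the 6 libraries. Saline replicate 1 is highest for Psmb8, Psmb9, Psmb10, Tap1 and H2-K1, while Psmb5 is lower in all 3 microbead libraries than in the saline libraries. B2m is highest in microbead replicate 1.

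Proteasome genes tended to move together between libraries of the same group. Microbead replicate 1 was the highest of the 3 microbead libraries in 43 of the 46 tested genes (93.5%, beside 37.6% of all genes tested), at a median of 0.52 log2 units above the mean of the other two. Saline replicate 3 was the highest of the saline libraries in 35 of 46 (76.1%, beside 39.8%). Proteasome genes took 0.388% of the counts of microbead replicate 1 and 0.282% and 0.294% in the other two, beside 0.325% to 0.349% in saline libraries. Without microbead replicate 1 the median log2 fold change of the 46 genes was -0.31, and without microbead replicate 2 it was -0.01.

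Outside the rule, 45 genes that work with the proteasome were tested, of which 1 rose and 6 fell past the threshold, beside 6.46% higher and 6.31% lower among all genes tested. The gene that rose was Shfm1, also named Sem1, the smallest subunit of the 19S particle. It was at 34.1, 30.1 and 36.9 CPM after saline and at 93.3, 55.9 and 61.8 CPM after microbeads. The groups lay well apart, with a log2 fold change of 1.06 and a standard error of 0.22 (adjusted p = 0.0206, edgeR). The adjusted p from edgeR was over 0.05 without saline replicate 2 (0.0839) or microbead replicate 3 (0.0782).

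Among the 12 shuttle receptors and partners of the segregase, which deliver tagged proteins to the proteasome, 4 fell and none rose past the threshold, where 6.31% of all genes tested fell and 6.46% rose. Vcp, the ATPase that pulls tagged proteins out of complexes and membranes, was at 284, 294 and 370 CPM after saline and at 162, 131 and 131 CPM after microbeads. With a log2 fold change of -1.17 and a standard error of 0.18 (adjusted p = 0.0119, edgeR), it missed the threshold only without microbead replicate 3 (0.0731). Its cofactor Nploc4 was at 76.0, 80.7 and 84.3 CPM and at 44.0, 42.8 and 51.8 CPM in the respective groups (log2 fold change -0.80, adjusted p = 0.0192, edgeR). Zfand5, a proteasome-binding activator, was at 121, 146 and 167 CPM and at 85.5, 71.7 and 61.7 CPM (-0.99, adjusted p = 0.0180, edgeR). The shuttle receptor Ubqln2 was at 147, 181 and 227 CPM and at 75.5, 97.3 and 112 CPM (-0.96, adjusted p = 0.0261, edgeR). None of the 4 overlapped between the groups. Nploc4 missed the threshold without saline replicate 2 or any one microbead library (adjusted p 0.0508 to 0.0804), Zfand5 without saline replicate 2 or microbead replicates 2 or 3 (0.0606 to 0.0919), and Ubqln2 without any one library but saline replicate 1 (0.0518 to 0.0840, all edgeR). Of the 31-base stretches of Vcp transcripts, 43.9% occur in Vcp-rs, which held 25 to 126 counts.

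Of the 5 deubiquitinases and ligases listed as acting at the proteasome, 2 ligases fell and 0 genes rose past the threshold. Among all genes tested, 6.31% fell and 6.46% rose. The other 3, the ligase Huwe1 (log2 fold change 0.40), Usp14 (-0.21) and Uchl5 (-0.03), did not pass. Ube3c, which extends ubiquitin chains on stalled substrates, was at 85.8, 91.9 and 106 CPM after saline and at 58.3, 58.4 and 57.6 CPM after microbeads (log2 fold change -0.70, adjusted p = 0.0260, edgeR). Ube3a, a ligase mutated in Angelman syndrome, was at 95.04, 111 and 93.7 CPM and at 65.1, 71.6 and 45.9 CPM (-0.71, adjusted p = 0.0463, edgeR). Neither overlapped between the groups. Ube3c passed without saline replicate 1 alone among the libraries left out, and Ube3a in none of these fits (adjusted p 0.0521 to 0.167, edgeR). Ube3a shares at most 27.3% of its exonic bases with genes on the opposite strand, as a base shared with several of them was counted for each.

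Pomp, the maturation factor of the core, was at 77.9, 71.2 and 84.2 CPM after saline and at 102, 70.3 and 57.3 CPM after microbeads, with overlapping groups (log2 fold change -0.03, adjusted p = 0.954, edgeR). Nfe2l1, the transcription factor that induces proteasome genes when degradation is impaired, was at 214, 276 and 291 CPM and at 157, 192 and 212 CPM. Its groups did not overlap, since the highest microbead value lay just under the lowest saline value, and it did not pass the threshold (log2 fold change -0.48, adjusted p = 0.125, edgeR). None of the 8 genes of transcriptional control, the 2 of ubiquitin activation or the 12 of MHC class I presentation passed with all libraries. B2m, the class I light chain, had a log2 fold change of 1.12 (adjusted p = 0.167, edgeR), and passed at 1.95 without saline replicate 1 (adjusted p = 0.0138, edgeR). The median log2 fold change of the 45 genes was -0.36, and 20 of them did not overlap between the groups, 3 higher and 17 lower, where 18.8% of all genes tested were higher and 18.9% lower without overlap.

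**Figure D5:**
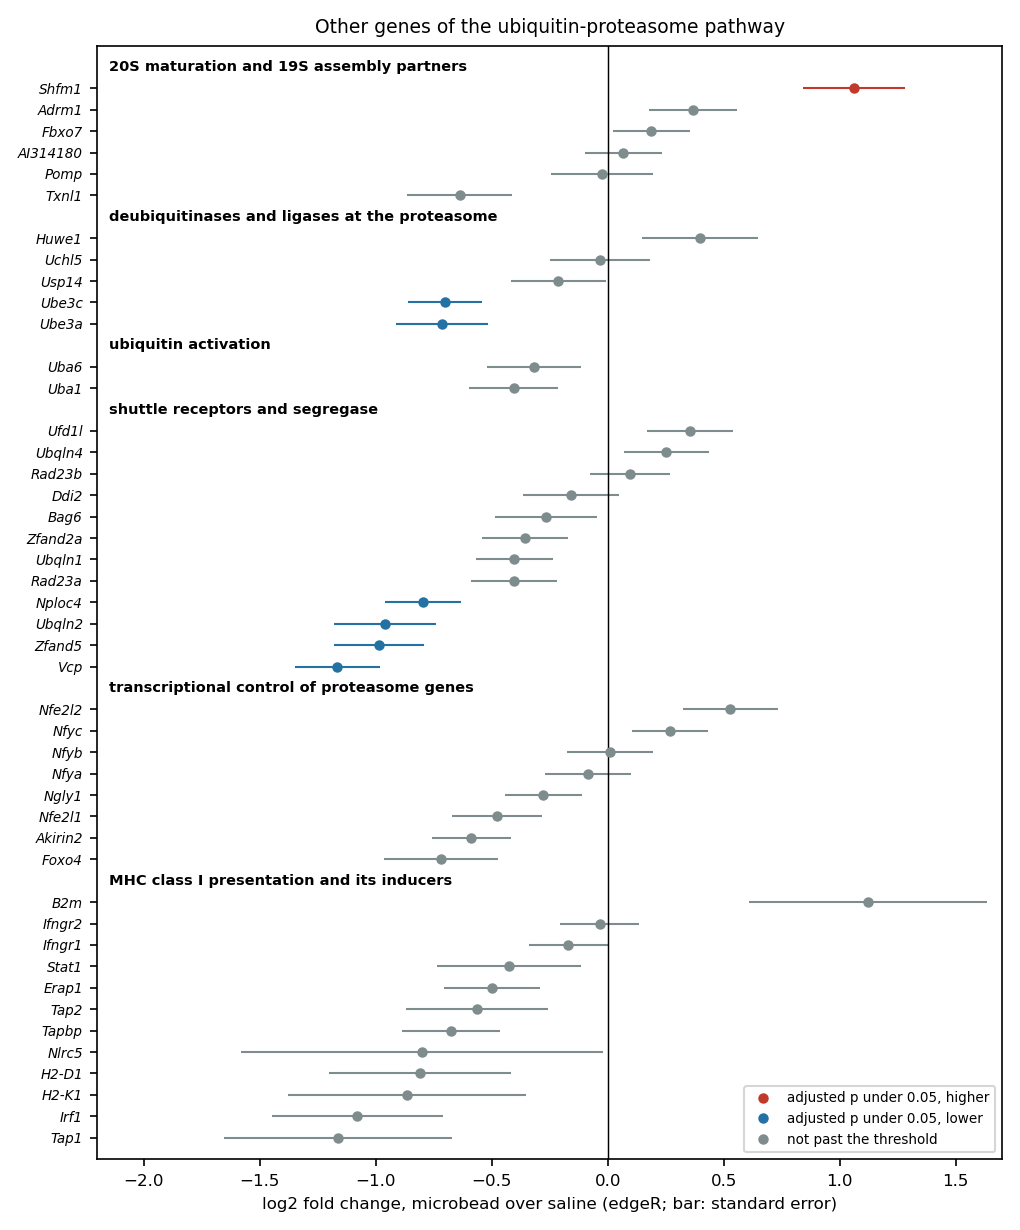
Log2 fold change, microbead over saline, from edgeR (horizontal axis) of 45 genes that work with the proteasome (vertical axis, by list); points are estimates over 3 libraries per group and bars their standard errors. Shfm1 is the 1 gene to the right of 0 past the threshold, and Vcp, Zfand5, Ubqln2, Nploc4, Ube3c and Ube3a lie to the left of 0 past it.

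Of the 48 genes, Psma8, the testis-specific alpha subunit, and Psmb11, the thymus-specific catalytic subunit, were not tested. Psma8 held 3, 2 and 3 counts in saline libraries and 0, 0 and 2 in microbead libraries, and Psmb11 held 1, 2 and 0 counts and 0, 2 and 0. No library exceeded 3 counts of either, and the depth did not allow a difference to be seen. The lowest count of a tested gene in any library was 18, of Psmb9. The 48 genes lie on 16 chromosomes. Of the 5 genes past the threshold, Psmb4, Psme3 and Psmg1 share no 31-base stretch of their transcripts with another locus. Psmb5 shares 65.7% of its own with other loci. Of its own, 59.8% are shared with Gm3375, which held at most 0.175% of the Psmb5 counts in any library. Another 31-base share of 10.8% is that with Psmb5-ps, which is absent from the count table. Psmd2 shares 29.3% with Gm5422, which held at most 0.573% of the Psmd2 counts. Annotated copies of the other genes that are in the count table held at most 1.76% of the gene's counts, except A730017L22Rik, a copy of Psmd11 with 7.05% to 15.3%. Copies absent from the count table are not covered. Among these are AC110212.1, which holds 17.3% of the 31-base stretches of Psmc1, and AC114990.1, which holds 16.8% of those of Psmb3.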

How the data were processed

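Per the study's methods and the submitters' processing notes, poly(A)-enriched, stranded libraries of whole retina were aligned with STAR 2.5.3a to GRCm38.p5 and counted on genes with featureCounts. The authors deposited raw counts per gene for each of 6 libraries, without normalization. How reads with several positions were treated and whether counting used strand are not given in the sources used here. The 6 columns of the authors' own DESeq2 comparison (mean, fold changes, p-values, call) were not used.

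Groups (3 saline, 3 microbead) came from the sample records, and all libraries were used. Within a group, the variance between any pair of libraries was 20.1 times that of sampling noise or more (chi-square per degree of freedom). The filter was filterByExpr of edgeR 4.0.16 in R 4.3.3 (10 counts, total of 15), and the 17707 genes left were scaled by TMM and tested two-sided by edgeR's quasi-likelihood method at an adjusted p (Benjamini-Hochberg, over all of them) under 0.05. The script was tested on simulated data. CPM are counts per 1000000 of the scaled library size, and levels per kb divide by the length of the merged exons in GENCODE vM21, the source of gene positions and shared stretches, which covers 99.5% of the genes in the table. Per 1000000 counts of the unscaled total, a count of 3 is worth 0.0645 in the deepest and 0.221 in the shallowest library, which covers counting error only.

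Proteasome genes and lists were chosen with earlier results of these data known. Values in every library are given for genes past the threshold, the 2 genes with the largest change of each role, the 6 catalytic beta genes, and in the wider list the genes past the threshold with Nfe2l1 and Pomp. Psmd1, Psmd6, Psmf1, Tap1, H2-K1 and B2m fall in part outside this rule or were picked after their values were seen. The alternatives tried were scaling by RLE, by upper quartiles or with the 100 most abundant genes left out of the totals, other filters, DESeq2 1.42.0, limma-voom (limma 3.58.1), counts thinned to the smallest total, the replicate number as a block, a threshold of 0.01, and each library left out.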

Additional observations from a re-analysis of the deposited data

How the results depend on the processing

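Among the proteasome genes, 2 higher and 3 lower calls were made, 7 in the wider list and 2261 over all genes. With no filter there were 5 lower calls, 16 in the wider list and 3720 over all genes. DESeq2 gave 11 in the wider list and 3621 over all genes (17.9% of 20270 genes), with 3 higher and 4 lower proteasome genes. At a threshold of 0.01 there were 0 higher, 0 lower and 0 in the wider list, and 87 over all genes. With the replicate number as a block, 0 higher and 2 lower proteasome genes, 4 genes of the wider list and 905 genes in all were past the threshold. The numbers were not taken to pair the libraries, since same-numbered libraries deviated together with correlations of -0.04, 0.14 and 0.01, and saline replicate 1 correlated best with microbead replicate 2. With 1 library left out, 0 to 1 higher and 0 to 4 lower proteasome genes, 0 to 7 genes of the wider list and 46 to 2621 genes in all were past the threshold, and the lowest count over all genes came without microbead replicate 3. Psmb4 and Psmb5 passed in all 9 alternatives that keep the 6 libraries and the threshold of 0.05, Psmd2 and Psme3 in 8 and Psmg1 in 7. Among the 29 genes recomputed under every alternative, the sign turned for Psmb7 without microbead replicate 1 (-0.12) and for Pomp with upper-quartile scaling (0.019) and without saline replicate 3 (0.03), microbead replicate 2 (0.05) or microbead replicate 3 (0.14). With 1 library left out, the log2 fold change ran from -0.12 to 0.38 for Psmb7 and from -0.29 to 0.14 for Pomp. Over all 46 proteasome genes, the sign turned without 1 library or another for 15, of which 0 were past the threshold. H2-K1 turned to 0.18 without saline replicate 1. The causes were not tested. Psma8 and Psmb11 had too few counts for a test, and Psmb9 held 18 and 19 counts in 2 of the microbead libraries.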
